A study of Homo sapiens with 10 samples.

Results

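Transcripts of 40 genes of the TGF-beta and BMP pathways were followed across 5 human prostate cancer cell lines. The genes were given as a list of names. All 40 were found among the 60642 gene symbols of the deposited table, and they comprised 10 ligands, 10 receptors, 8 SMAD proteins, 4 ID genes, 3 secreted antagonists and 5 matrix and latency proteins. LNCaP (clone FGC in the methods), DUCAP, VCAP, DU145 and PC3 cells were untreated, were grown in phenol red-free RPMI with fetal bovine serum and were collected in exponential growth. The serum was 5% in the methods and 5 to 10% in the labels. Each line was profiled by bulk RNA-seq in 2 biological repeats, which gave 10 samples. Each line is a single established culture. LNCaP came from a lymph node metastasis, DU145 from a brain metastasis and PC3 from a bone metastasis, and DUCAP and VCAP came from separate metastases of the same patient.

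TGF-beta, activin and BMP ligands bind pairs of type II and type I receptor kinases, which phosphorylate SMAD proteins. SMAD2 and SMAD3 carry the signals of TGF-beta and activin, SMAD1, SMAD5 and SMAD9 those of BMPs, and SMAD4 is their common partner, whereas SMAD6 and SMAD7 inhibit the pathway. ID genes are direct targets of BMP signaling. In the prostate, TGF-beta restrains the growth of normal epithelium, and BMPs have been studied for their part in bone metastasis.

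Levels were given as TPM, transcript abundances scaled to a fixed total and corrected for transcript length, so that levels of different genes can be compared within a sample. Differences between lines were tested with limma on the log2(TPM + 1) scale, on which changes of low genes are understated. A gene was called when its Benjamini-Hochberg adjusted p over the 17520 tested genes was below 0.05 and its difference was at least 1, which is 2-fold on this scale. BMP2 and BMP5 did not reach 1 TPM in 2 samples and were not tested, and the other 38 members were. Some genes, among them TGFB1, INHBA, FST, NOG and TGFBI, reached 1 TPM only in the lines where they were high. They entered the test through those lines, so their p-values give no support apart from the levels themselves. The same holds for TGFBR2 and BMP7, for which only 1 sample of the other lines reached 1 TPM. Only the distance between the 2 repeats of each line entered the error term, so the p-values speak of these cultures and not of classes of prostate cancer, and part of that distance may be technical. In bulk samples, fewer expressing cells and less RNA per cell cannot be told apart.

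The labelled lines were checked against marker genes. ERG, which is fused to TMPRSS2 in VCAP and DUCAP, was listed at 122 to 199 TPM in these lines and at no more than 0.19 TPM elsewhere. The epithelial keratins KRT8 and KRT18 were present in all samples (98.95 to 1077.35 TPM), and HOXB13 was near 0 only in DU145. KLK3, which encodes prostate-specific antigen, was at most 0.77 TPM in DU145 and PC3 and at least 28.3 TPM in the other lines. Of the 6 mesenchymal or stromal markers, VIM stood at 799 to 1201 TPM in DU145 and PC3 and at 0 to 4.25 TPM in the other lines, where it was listed at 0 in all 4 samples of DUCAP and VCAP. The summed level of these 6 markers was 804 to 1202 TPM in DU145 and PC3 and 1.08 to 12.1 TPM in the others, while DCN and PDGFRB stayed at or below 0.79 TPM in all 10 samples. VIM made up nearly all of this sum in DU145 (799 of 804 and 1201 of 1202 TPM) and most of it in PC3. In DU145, COL1A1 (4.60 and 1.25 TPM) lay below its LNCaP level (6.20 and 6.66 TPM). COL1A1 was highest in PC3 (31.5 and 38.0 TPM), as was COL3A1 (3.61 and 8.45 TPM), and LUM in VCAP (5.35 and 5.12 TPM). Endothelial markers summed to at most 5.46 TPM and leukocyte markers to at most 1.43 TPM. The difference in VIM moves with the split of the lines described next, and its part in the results was not tested. Transcripts of the 37 mitochondrial genes held 12.7 to 22.5% of the TPM in DU145 and PC3, 18.9 to 19.7% in LNCaP and 32.1 to 36.0% in DUCAP and VCAP, which leaves a smaller share of the total to the other genes of the last pair.

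Across the 5 lines, 34 of the 40 members were called (moderated F test), which is 85.0%, against 80.8% of all tested genes. Percentages of members here and below are of all 40 unless the tested ones are named, so BMP2 and BMP5 count as not called. Of the 38 tested members, 89.5% were called. Most genes thus differed between these lines, and the members did so about as often as any. Their directions were described with 4 mutually orthogonal contrasts. These compared DU145 and PC3 with the other 3 lines, DU145 with PC3, LNCaP with the mean of DUCAP and VCAP, and DUCAP with VCAP. Of the 40 members, 19 were called higher in DU145 and PC3 than in LNCaP, DUCAP and VCAP (47.5%, against 26.7% of all tested genes) and 3 were called lower (7.5%, against 8.37%). The median log2 difference in this contrast was 0.98 over the 38 tested members and 0.40 over all tested genes. All 4 DU145 and PC3 samples lay above all 6 other samples for 12 members (30.0%, against 19.8% of tested genes) and below them for 1 member, ACVR1B (2.5%, against 6.92%). Of the 38 tested members the 12 were 31.6%. FST and NOG were among the 12, with DU145 at only 0.27 to 0.54 TPM. With quantile normalization, 17 members were higher and 6 lower, beside 2767 higher and 2636 lower of all 17520 tested genes. The median of all genes moved to −0.07. Of all called genes, 51.2% were then higher, in place of 76.1%.

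**Figure D1:**
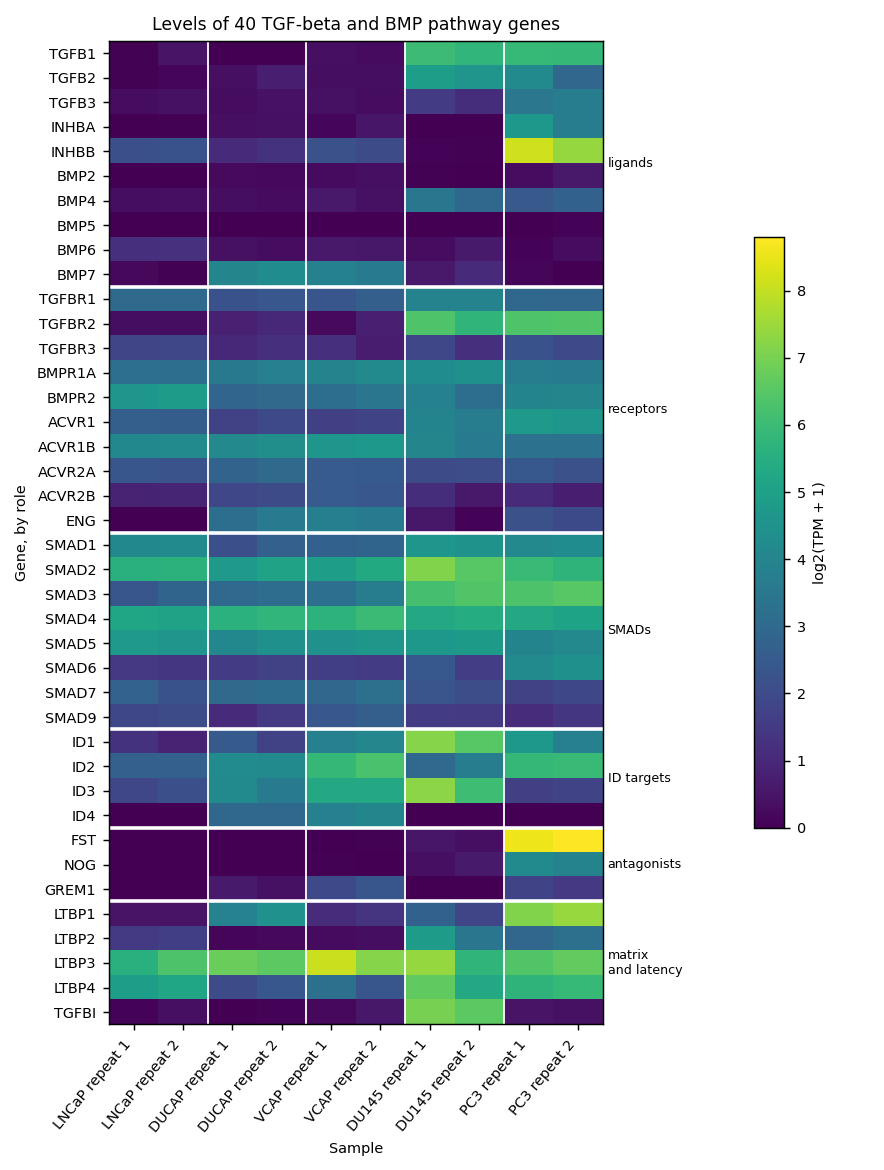
Level of each of the 40 genes (rows, by role) in each of the 10 samples (columns) as log2(TPM + 1), from 0 (dark) upward (bright). TGFB1, TGFBR2 and SMAD3 are bright in both repeats of DU145 and PC3, FST and LTBP1 in PC3, TGFBI in DU145, and BMP7 and ID4 in DUCAP and VCAP.

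The most abundant ligand transcript was not the same in all lines. TGFB1, the most studied of the 3 TGF-beta isoforms (chromosome 19 of GRCh38.p14, 41330323 to 41353922), was listed at 0.03 and 0.38 TPM for LNCaP, 0.01 and 0.02 for DUCAP, 0.27 and 0.20 for VCAP, 64.8 and 54.0 for DU145, and 58.6 and 56.8 for PC3. The DU145 and PC3 values lay far above all others and those of LNCaP, DUCAP and VCAP were near 0. The log2 difference was 5.70 (standard error 0.12, adjusted p = 8.7e-09). DU145 and PC3 themselves differed by only 0.04 (adjusted p = 0.91). TGFB2 stood at 0.03 and 0.10 TPM for LNCaP, 0.27 and 0.65 for DUCAP, 0.24 and 0.25 for VCAP, 28.8 and 23.2 for DU145, and 17.2 and 6.48 for PC3. It was again high in DU145 and PC3 only, at a log2 difference of 3.83, and the PC3 repeats were over 2-fold apart. The call of TGFB2 as higher in DU145 than in PC3 (1.20) was lost without PC3 repeat 2 (0.56, adjusted p = 0.105) and without DU145 repeat 1 (adjusted p = 0.0813). TGFB3, the third isoform, was at 0.23 and 0.32 TPM for LNCaP, 0.21 and 0.35 for DUCAP, 0.30 and 0.23 for VCAP, 1.86 and 1.22 for DU145, and 10.3 and 12.3 for PC3. PC3 was the highest line, DU145 lay between it and the rest, and no groups of these 3 levels overlapped. Its log2 difference was 2.13 between DU145 and PC3 and the other lines and −2.28 between DU145 and PC3. The summed level of the 3 isoforms was 87.0 ± 12.1 TPM (SD, n = 2) in DU145 and 80.8 ± 7.44 TPM in PC3, against 0.545 to 0.755 TPM in the line means of the others.

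The activin subunits separated PC3 from DU145. INHBB encodes the beta B subunit, which forms activin B or, with the alpha subunit, inhibin B. It was measured at 3.39 and 3.64 TPM for LNCaP, 1.11 and 1.45 for DUCAP, 3.51 and 3.08 for VCAP, 0.07 and 0.04 for DU145, and 287 and 169 for PC3. The PC3 repeats exceeded every other sample by more than an order of magnitude, DU145 was the lowest line, and the log2 difference of DU145 from PC3 was −7.71 (standard error 0.24, adjusted p = 1.9e-07). INHBA, the beta A subunit, was at 0 and 0.03 TPM for LNCaP, 0.27 and 0.30 for DUCAP, 0.11 and 0.45 for VCAP, 0 and 0 for DU145, and 24.7 and 12.4 for PC3. It was above 1 TPM in PC3 alone, with a log2 difference of −4.21 between DU145 and PC3. INHBA thus entered the test only through PC3. The calls of INHBA (1.86) and INHBB (2.11) as higher in DU145 and PC3 as a pair therefore rest on PC3. In DU145, INHBA was listed at 0 and INHBB at 0.07 TPM or less.

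Among the BMP ligands, BMP7 marked DUCAP and VCAP. BMP7, a bone morphogenetic protein of kidney and bone development, was at 0.13 and 0.03 TPM for LNCaP, 15.1 and 18.4 for DUCAP, 13.6 and 11.7 for VCAP, 0.51 and 1.07 for DU145, and 0.08 and 0.01 for PC3. The 4 samples of DUCAP and VCAP lay above the other 6, and LNCaP and PC3 were near 0. The log2 difference was −3.85 (standard error 0.17, adjusted p = 6.7e-07) for LNCaP against DUCAP and VCAP and −2.23 for DU145 and PC3 against the other 3 lines. DUCAP exceeded VCAP by 0.38, which did not pass (adjusted p = 0.22). BMP4 was higher in DU145 and PC3 (4.48 to 9.90 TPM) than in the other lines (0.19 to 0.53 TPM), a log2 difference of 2.53. BMP6 was low throughout, at 0.06 to 1.38 TPM, and highest in LNCaP. BMP2 reached 0.52 TPM and BMP5 0.05 TPM at most.

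As a share of the summed TPM of the 10 ligands, TGFB1 made up 61.6 ± 0.786% (SD, n = 2) in DU145, INHBB 67.7 ± 5.05% in PC3 and 61.2 ± 2.94% in LNCaP, and BMP7 85.1 ± 0.375% in DUCAP and 69.7 ± 1.17% in VCAP. The LNCaP share belongs to a small total, since the ligands summed to 5.76 ± 0.566 TPM there. The totals were 19.7 ± 2.86 TPM in DUCAP, 18.1 ± 1.58 in VCAP, 96.6 ± 13.6 in DU145 and 333 ± 98.6 in PC3.

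**Figure D2:**
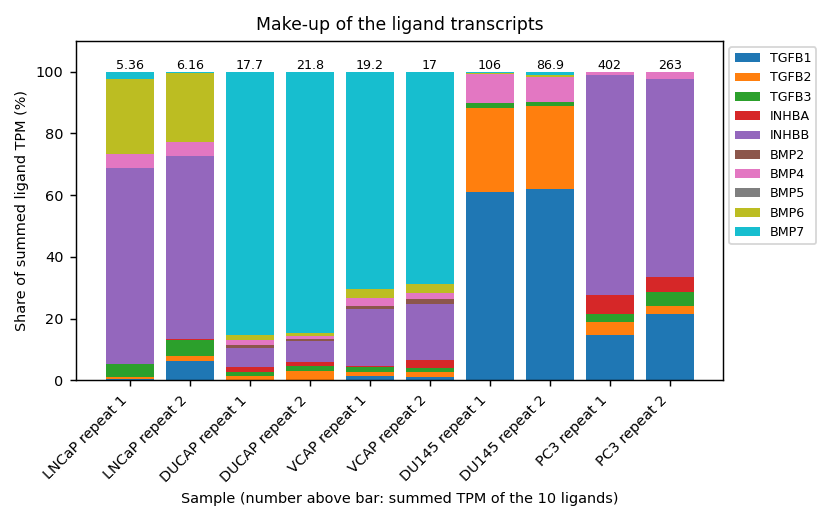
Share of each of the 10 ligands in their summed TPM (%, stacked bars from 0 to 100) in each of the 10 samples, with the sum in TPM above each bar. TGFB1 leads in DU145, INHBB in PC3 and LNCaP, and BMP7 in DUCAP and VCAP, and the leading ligand is the same in both repeats of every line.

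Among the receptors, TGFBR2 had the widest range of line means. TGFBR2, the type II receptor that binds TGF-beta itself (chromosome 3 of GRCh38.p14, 30606356 to 30694142), was at 0.24 and 0.25 TPM for LNCaP, 0.76 and 1.02 for DUCAP, 0.18 and 0.70 for VCAP, 81.7 and 53.0 for DU145, and 81.5 and 84.3 for PC3. Like TGFB1, it was high in all 4 samples of DU145 and PC3 and at or near 1 TPM or below in the other 6. The log2 difference was 5.65 (standard error 0.16, adjusted p = 2.6e-08), whereas DU145 and PC3 differed by −0.33 (adjusted p = 0.3). TGFBR2 held 46.1 ± 4.79% of the summed receptor TPM in DU145 and 51.6 ± 1.49% in PC3. TGFBR1, the type I partner, was present in all lines at 3.68 to 14.4 TPM. DU145 was its highest line and exceeded PC3 by 1.01, a difference that fell just under 2-fold without PC3 repeat 2 (0.98). Its log2 difference between DU145 and PC3 and the other lines (0.83) passed the adjusted p but was under 2-fold.

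ENG, the co-receptor endoglin, which is best known from endothelial cells, had another distribution. It was at 0 and 0 TPM for LNCaP, 8.11 and 10.9 for DUCAP, 13.0 and 11.2 for VCAP, 0.47 and 0.05 for DU145, and 3.49 and 2.95 for PC3. DUCAP and VCAP lay above the other lines without overlap, PC3 was intermediate, and LNCaP was listed at 0 in both repeats. The log2 difference was −3.54 for LNCaP against DUCAP and VCAP, −1.76 for DU145 against PC3, and −1.17 for DU145 and PC3 against the other lines. In DUCAP and VCAP the endothelial markers PECAM1 and CDH5 were at most 0.04 TPM and VWF at most 0.64 TPM, while VWF was at 4.22 to 5.45 TPM in LNCaP, where ENG was listed at 0. TGFBR3, or betaglycan, the other co-receptor, ranged only from 0.60 to 3.59 TPM.

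The remaining receptors were expressed in every sample. ACVR1, a type I receptor for BMPs, was higher in DU145 and PC3 (11.9 to 25.2 TPM) than in LNCaP (5.37 and 5.02) or DUCAP and VCAP (2.17 to 2.84), with a log2 difference of 2.19. ACVR1B, the type I receptor for activin, went the other way without passing the 2-fold limit (−0.79, adjusted p = 1.5e-04), at 8.85 to 15.0 against 16.3 to 24.9 TPM. BMPR2, the type II receptor of BMPs, was highest in LNCaP at 23.8 and 27.2 TPM, 1.60 above DUCAP and VCAP on the log2 scale. That value was 0.97 with quantile and 0.99 with median-ratio scaling, just under the limit. ACVR2B, a type II activin receptor, was lower in LNCaP than in DUCAP and VCAP on the same scale (−1.32) and at most 4.69 TPM anywhere. BMPR1A (8.07 to 20.1 TPM) and ACVR2A (3.06 to 7.29 TPM) were called in none of the 4 contrasts.

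SMAD3, a carrier of TGF-beta and activin signals, was high in the same lines as TGFBR2. It was at 4.11 and 6.19 TPM for LNCaP, 7.08 and 7.85 for DUCAP, 8.24 and 11.9 for VCAP, 71.9 and 83.1 for DU145, and 79.5 and 90.1 for PC3. The 4 DU145 and PC3 samples lay above the other 6 with a wide gap, and the log2 difference was 3.31 (standard error 0.14, adjusted p = 2.2e-07). The difference between DU145 and PC3 was small (−0.13, adjusted p = 0.67). SMAD2, its close relative, was at 46.5 and 48.8 TPM for LNCaP, 25.2 and 32.5 for DUCAP, 29.4 and 39.1 for VCAP, 138 and 90.6 for DU145, and 61.0 and 52.1 for PC3. It too was highest in DU145 and PC3 without overlap, but by 1.12 only. This fell under 2-fold after each rescaling (0.62 to 0.89) and without DU145 repeat 1 (0.97), and the samples overlapped with quantile normalization and with median-ratio scaling. SMAD3 made up 60.0 ± 4.80% of the summed SMAD2 and SMAD3 level in PC3, the only line in which it exceeded SMAD2, whereas SMAD2 made up 90.3 ± 2.21% in LNCaP.

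Of the SMADs of the BMP branch, SMAD1 varied most. It was at 16.0 to 23.7 TPM in LNCaP, DU145 and PC3 and at 3.44 to 6.21 TPM in DUCAP and VCAP, so that it was called higher both in DU145 and PC3 (1.26) and in LNCaP against DUCAP and VCAP (1.52). Both values were under 2-fold with quantile normalization (0.71 and 0.89) and with median-ratio scaling (0.84 and 0.93). SMAD5 (14.5 to 26.7 TPM) and SMAD4 (32.2 to 62.6 TPM) were called in no contrast, and their line means spanned 0.69 and 0.73 on the log2 scale. SMAD9 was lower in DUCAP (1.05 and 1.83 TPM) than in VCAP (4.19 and 5.39 TPM), at a log2 difference of −1.26. The ratio of SMAD2 plus SMAD3 to SMAD1 plus SMAD5 plus SMAD9 was 3.84 ± 0.493 in DU145 and 4.14 ± 0.322 in PC3 (SD, n = 2). In LNCaP, DUCAP and VCAP it was 1.20 ± 0.112, 1.52 ± 0.0875 and 1.32 ± 0.145. The 4 ratios of DU145 and PC3 (3.49 to 4.37) did not overlap the 6 others (1.12 to 1.58).

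Of the inhibitory SMADs, SMAD6, which acts mainly on the BMP branch, was highest in PC3 at 17.0 and 20.3 TPM, against 1.60 to 4.40 TPM in the other lines. Its log2 difference of DU145 from PC3 was −2.28 (standard error 0.26, adjusted p = 1.7e-04), and the call in the contrast of both lines with the rest (1.60) came from PC3. SMAD7, which acts on both branches, was lowest in PC3 (2.34 and 2.79 TPM) and highest in DUCAP and VCAP (6.44 to 8.46 TPM), and was called in none of the 4 contrasts. SMAD6 took 87.9% of the summed SMAD6 and SMAD7 level in both PC3 repeats, and SMAD7 the larger mean share in each other line, from 55.0 ± 10.5% in DU145 to 78.2 ± 4.09% in VCAP.

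The ID genes differed in which line was highest. Their products are helix-loop-helix proteins without a DNA-binding region, which bind and inhibit basic helix-loop-helix factors. ID1 was at 1.46 and 0.84 TPM for LNCaP, 4.67 and 2.32 for DUCAP, 13.3 and 15.8 for VCAP, 144.67 and 90.2 for DU145, and 24.8 and 13.1 for PC3. DU145 lay above all other lines, LNCaP was the lowest and the repeats of DU145, DUCAP and PC3 were well apart. Its log2 difference was 2.60 (standard error 0.38, adjusted p = 6.7e-04) between DU145 and PC3. ID3 was at 2.69 and 3.41 TPM for LNCaP, 17.2 and 11.4 for DUCAP, 38.4 and 38.7 for VCAP, 153 and 66.6 for DU145, and 2.18 and 2.50 for PC3. It resembled ID1 in its DU145 maximum, at 4.93 (standard error 0.35, adjusted p = 1.3e-05) against PC3, and differed from it in PC3, where ID3 was at the level of LNCaP. DU145 repeat 1 exceeded repeat 2 over 2-fold for ID3. ID2 was at 5.54 and 5.44 TPM for LNCaP, 17.8 and 17.7 for DUCAP, 57.2 and 76.9 for VCAP, 6.96 and 12.1 for DU145, and 56.8 and 61.0 for PC3. VCAP and PC3 were its highest lines and overlapped each other, and the log2 difference of DU145 from PC3 was −2.55. ID4 was at 0.01 and 0 TPM for LNCaP, 6.74 and 6.70 for DUCAP, 13.3 and 15.4 for VCAP, 0 and 0 for DU145, and 0.01 and 0 for PC3. It was expressed in DUCAP and VCAP and near 0 in all 6 other samples, which resembles BMP7.

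All 4 ID genes were lower in LNCaP than in DUCAP and VCAP, by log2 differences of −1.95 for ID1, −2.45 for ID2, −2.59 for ID3 and −3.43 for ID4. Each was lower in DUCAP than in VCAP as well, at −1.84, −1.85, −1.40 and −0.98, where ID4 did not reach 2-fold. The ID1 call between DUCAP and VCAP was lost without DUCAP repeat 2 (−1.45, adjusted p = 0.085), VCAP repeat 1 (−1.95, adjusted p = 0.0513) or VCAP repeat 2 (−1.72, adjusted p = 0.0689). The ID3 call was lost without any 1 of the 4 samples of these lines (−1.12 to −1.68, adjusted p = 0.0656 to 0.165), with quantile normalization (−1.21, adjusted p = 0.0796), with median-ratio scaling (−1.20, adjusted p = 0.0572) and in the unfiltered fit (adjusted p = 0.071). Against LNCaP, DUCAP and VCAP, DU145 and PC3 together had more ID1 (3.16) and less ID4 (−2.29). For ID1, PC3 repeat 2 (13.08 TPM) lay below both VCAP samples (13.32 and 15.82 TPM). ID4 was near 0 in LNCaP too, so its difference comes from DUCAP and VCAP. The summed ID level was 9.70 ± 0.00707 TPM in LNCaP, 42.2 ± 5.86 in DUCAP, 134 ± 17.4 in VCAP, 237 ± 95.7 in DU145 and 80.2 ± 5.09 in PC3. ID2 held the largest share in LNCaP (56.6 ± 0.688%), DUCAP (42.4 ± 5.75%), VCAP (49.6 ± 3.95%) and PC3 (73.7 ± 8.42%), and ID1 in the mean of DU145 (50.5 ± 4.12%). In DU145 repeat 1, ID3 held 50.1% and ID1 47.6%.

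**Figure D3:**
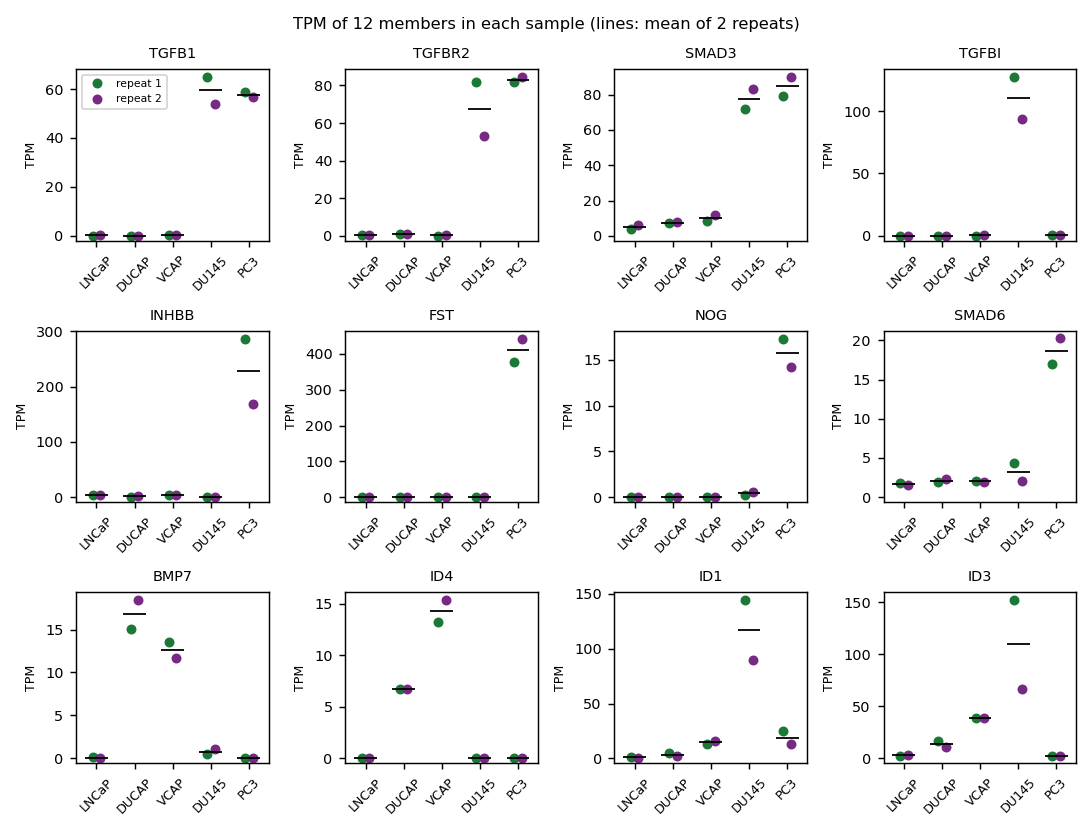
TPM of 12 members (linear axes that start at 0, a separate scale for each gene) in repeat 1 (green) and repeat 2 (purple) of the 5 lines, with the mean of both as a horizontal line. TGFB1, TGFBR2 and SMAD3 are high in DU145 and PC3, INHBB, FST, NOG and SMAD6 in PC3, TGFBI, ID1 and ID3 in DU145, and BMP7 and ID4 in DUCAP and VCAP.

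The promoters of the ID genes are shown because these 4 relatives differed in their line patterns, and that of SMAD6 because it held the rarest of the SMAD motifs searched. The sequences are from RefSeq (GRCh38.p14) and hold the 250 bases before the annotated start, in the direction of the gene. Of the 40 members 37 were matched, and BMP2, BMP7 and NOG were not. Capitals mark matches on either strand to GTCTAGAC (a palindromic SMAD element), CAGAC (the SMAD box), GGCGCC (a BMP-responsive SMAD element), CCAAT and TATAAA. The last 2 motifs were added after the sequences had been seen. The SMAD motifs do not contain each other.
ID1 (chr20:31605039-31605288, plus strand): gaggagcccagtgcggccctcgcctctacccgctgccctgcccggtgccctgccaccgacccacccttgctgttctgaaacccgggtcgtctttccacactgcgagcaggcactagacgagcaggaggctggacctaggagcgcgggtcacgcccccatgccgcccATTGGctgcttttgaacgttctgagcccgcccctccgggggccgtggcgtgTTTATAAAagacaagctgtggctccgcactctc
ID2 (chr2:8681806-8682055, plus strand): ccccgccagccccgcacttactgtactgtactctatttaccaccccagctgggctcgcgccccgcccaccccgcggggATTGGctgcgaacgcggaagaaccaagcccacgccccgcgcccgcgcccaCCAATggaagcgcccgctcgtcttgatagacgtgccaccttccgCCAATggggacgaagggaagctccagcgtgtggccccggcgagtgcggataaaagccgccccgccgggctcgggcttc
ID3 (chr1:23559502-23559751, minus strand): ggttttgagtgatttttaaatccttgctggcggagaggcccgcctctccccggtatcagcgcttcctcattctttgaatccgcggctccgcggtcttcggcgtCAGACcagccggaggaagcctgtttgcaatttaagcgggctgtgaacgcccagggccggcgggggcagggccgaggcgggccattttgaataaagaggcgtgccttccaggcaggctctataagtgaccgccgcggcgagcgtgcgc
ID4 (chr6:19837120-19837369, plus strand): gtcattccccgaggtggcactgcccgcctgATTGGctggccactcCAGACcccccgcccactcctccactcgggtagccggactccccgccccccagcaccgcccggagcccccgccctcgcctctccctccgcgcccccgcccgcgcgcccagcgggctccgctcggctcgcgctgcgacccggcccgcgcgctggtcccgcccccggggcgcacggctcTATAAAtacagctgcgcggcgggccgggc
SMAD6 (chr15:66701986-66702235, plus strand): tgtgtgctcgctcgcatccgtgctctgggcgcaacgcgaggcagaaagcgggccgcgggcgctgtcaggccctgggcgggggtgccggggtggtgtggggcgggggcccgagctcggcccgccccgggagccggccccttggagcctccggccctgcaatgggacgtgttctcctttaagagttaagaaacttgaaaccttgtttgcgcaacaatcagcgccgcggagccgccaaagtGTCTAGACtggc

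In these windows the SMAD box occurred once in ID3 and once in ID4, at 147 and 205 bases before the start, and was in 38.0% of the 35116 promoters of the table. The palindrome was in the SMAD6 window, 12 bases before the start, and in 0.182% of all promoters. CCAAT was found 3 times in ID2 and once each in ID1 and ID4 (32.0% of promoters hold it), and TATAAA in ID1, where matches on both strands overlap, and in ID4 (10.7%). GGCGCC, in 16.4% of promoters, was in none of these 5 windows and in 16 of the 67 promoters listed for the members (23.9%). A match describes the letters and not a bound site.

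Among the antagonists, FST and NOG were highest in PC3 and GREM1 in VCAP. FST encodes follistatin, which binds activins and some BMPs (chromosome 5 of GRCh38.p14, 53480629 to 53487134). It was listed at 0.02 and 0.02 TPM for LNCaP, 0 and 0 for DUCAP, 0 and 0.04 for VCAP, 0.45 and 0.27 for DU145, and 377 and 443 for PC3. PC3 stood apart from all 8 other samples, none of which reached 0.5 TPM, and the log2 difference of DU145 from PC3 was −8.24 (standard error 0.15, adjusted p = 3.5e-08). PC3 was thus the highest line both for the activin subunits and for this activin-binding protein. NOG, noggin, which binds BMPs, was at 0 and 0 TPM for LNCaP, 0 and 0 for DUCAP, 0.03 and 0 for VCAP, 0.27 and 0.54 for DU145, and 17.3 and 14.2 for PC3. It was again above 1 TPM in PC3 alone, and DU145 against PC3 gave −3.58 (standard error 0.14, adjusted p = 5.9e-07). FST and NOG entered the test only through the PC3 samples, so their p-values add no support to these levels. Both genes were also called higher in DU145 and PC3 together (4.54 for FST and 2.27 for NOG), with DU145 at 0.54 TPM or less. GREM1, gremlin, another BMP antagonist, was at 1.78 to 2.47 TPM in PC3, 2.87 to 4.14 in VCAP and 0.32 to 0.57 in DUCAP and was listed at 0 in LNCaP and DU145. Its log2 differences were −1.64 for DU145 against PC3, −1.34 for LNCaP against DUCAP and VCAP, and −1.63 for DUCAP against VCAP.

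The latent TGF-beta binding proteins include LTBP1, which tethers the inactive ligand to the matrix. LTBP1 was at 0.39 and 0.39 TPM for LNCaP, 13.8 and 20.7 for DUCAP, 1.15 and 1.48 for VCAP, 5.59 and 2.59 for DU145, and 138 and 171 for PC3. PC3 was far above the rest, DUCAP came next, and LNCaP was lowest. The call in DU145 and PC3 against the other lines (2.83) thus includes a DU145 level below that of DUCAP. LTBP1 was the 1 member called higher in DUCAP than in VCAP (2.5% of members, against 1.46% of tested genes), at 2.95 (standard error 0.30, adjusted p = 4.6e-04). LTBP2 was at 1.81 and 2.10 TPM for LNCaP, 0.11 and 0.13 for DUCAP, 0.19 and 0.25 for VCAP, 27.8 and 9.92 for DU145, and 6.47 and 8.47 for PC3. The levels were highest in DU145 and PC3 (2.94 against the other lines) and lowest in DUCAP and VCAP. Its DU145 repeats were over 2-fold apart, and its call between DU145 and PC3 (1.08, adjusted p = 0.046) did not hold under most alternatives. It was 0.38 without DU145 repeat 1, 0.90 without PC3 repeat 1, and above an adjusted p of 0.05 without any other sample except DU145 repeat 2 and in the fit that blocked on repeat numbers (1.08, adjusted p = 0.0558). LTBP4 was at 29.7 and 35.7 TPM for LNCaP, 3.02 and 4.18 for DUCAP, 8.53 and 4.08 for VCAP, 99.96 and 38.4 for DU145, and 52.0 and 58.9 for PC3. It was high in LNCaP, DU145 and PC3 and lower in DUCAP and VCAP without overlap, at 2.55 for DU145 and PC3 against the other lines and 2.57 for LNCaP against DUCAP and VCAP. LTBP3 had the highest mean of the 4, at 47.4 and 80.8 TPM for LNCaP, 108 and 95.2 for DUCAP, 273 and 144 for VCAP, 168 and 52.4 for DU145, and 82.8 and 102 for PC3. Its samples overlapped between lines and it was not called in the F test (adjusted p = 0.12). Its call as lower in LNCaP than in DUCAP and VCAP (−1.19, adjusted p = 0.047) was lost without LNCaP repeat 1 (−0.81), without VCAP repeat 1 (−0.96) and, at adjusted p = 0.0572 to 0.104, without LNCaP repeat 2, either DUCAP repeat or either PC3 repeat.

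TGFBI, an extracellular matrix protein named for its induction by TGF-beta, was at 0.07 and 0.27 TPM for LNCaP, 0 and 0.05 for DUCAP, 0.14 and 0.49 for VCAP, 127 and 93.6 for DU145, and 0.39 and 0.31 for PC3. DU145 was the only line above 0.5 TPM. PC3, in which TGFB1, TGFBR2 and SMAD3 were as high as in DU145, had TGFBI at the level of the remaining lines. The log2 difference of DU145 from PC3 was 6.35 (standard error 0.20, adjusted p = 2.1e-07), and the call in DU145 and PC3 against the other lines (3.39) rests on DU145. TGFBI entered the test only through DU145, so its p-value adds no support to these levels.

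Read by line pair, 6 members were called higher in DU145 than in PC3 (15.0%, against 13.3% of tested genes) and 10 lower (25.0%, against 14%). Of the 38 tested members these were 15.8% and 26.3%. The 6 were TGFB2, TGFBR1, ID1, ID3, LTBP2 and TGFBI, and the 10 were TGFB3, INHBA, INHBB, ENG, SMAD6, ID2, FST, NOG, GREM1 and LTBP1, with −4.99 for LTBP1. In LNCaP, 4 members were called higher than in DUCAP and VCAP (10.0%, against 29.7%) and 10 lower (25.0%, against 7.88%). The 4 were BMPR2, SMAD1, LTBP2 (1.34) and LTBP4. The LTBP2 value was 1.27 (adjusted p = 0.0508) without LNCaP repeat 2. The 10 lower ones included the 4 ID genes, BMP7, ENG and LTBP1 (−2.21). The median over the tested members was −0.25 in this contrast, against 0.46 over all tested genes. After quantile normalization 2 members were higher and 15 lower, beside 2889 higher and 2631 lower of all 17520 tested genes. The median of all genes was then 0, and the share of higher genes among all called ones fell to 52.3% from 79.0%. Between DUCAP and VCAP, 5 members were called lower in DUCAP, namely SMAD9, ID1, ID2, ID3 and GREM1 (12.5%, against 6.23% of tested genes). Of all called genes, 18.9% were higher in DUCAP, and 40.6% after quantile normalization. With that scaling 1 member was higher and 4 lower, beside 580 higher and 847 lower of all 17520 tested genes.

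**Figure D4:**
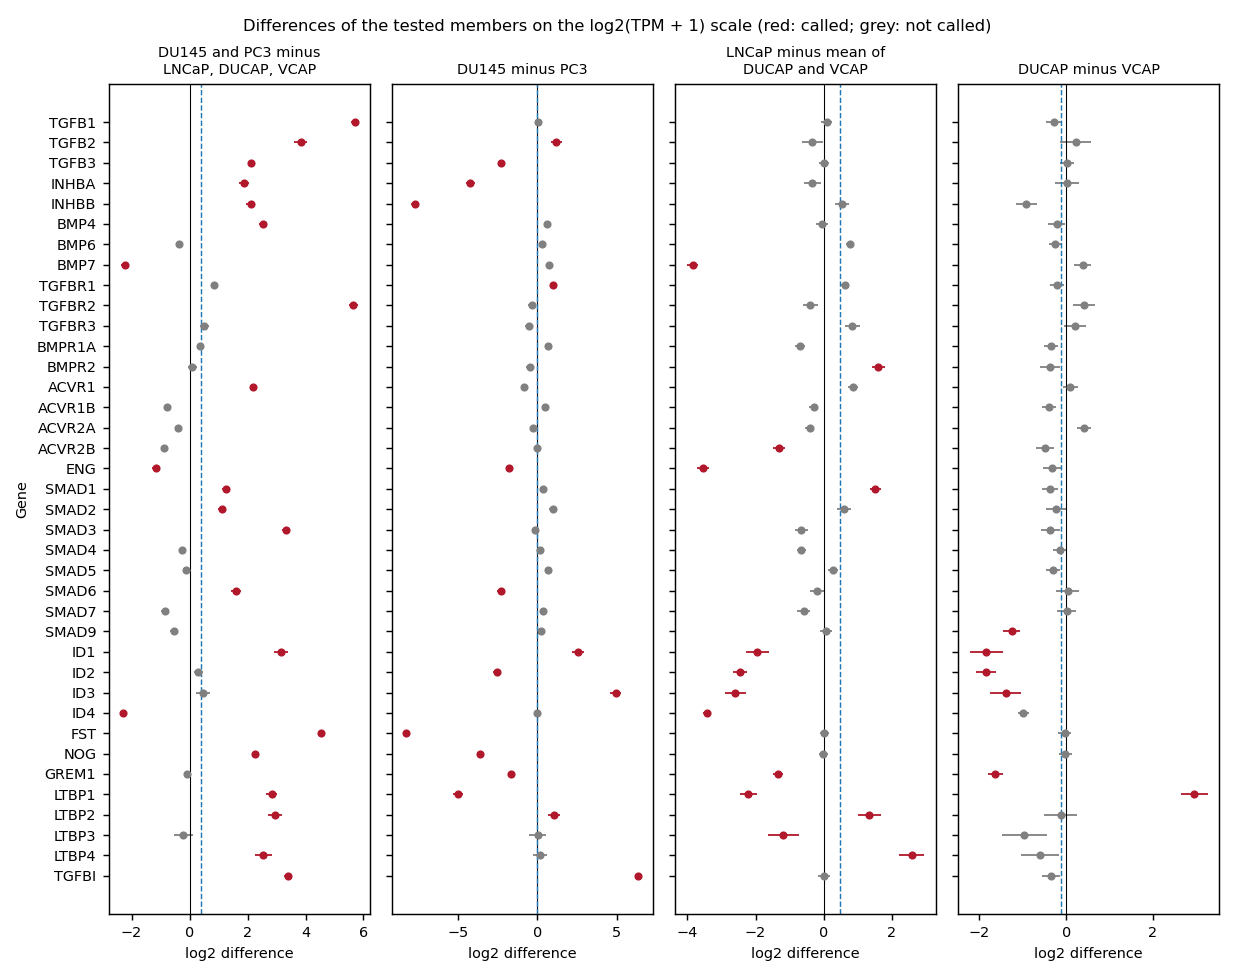
Log2 difference (horizontal axes, log2(TPM + 1) scale) of the 38 tested members in the 4 contrasts, with standard errors as bars, red where called and grey where not, and the median of all tested genes as a dashed blue line. In the first panel TGFB1 and TGFBR2 lie farthest to the right, at 5.70 and 5.65, and in the second FST and INHBB lie farthest to the left, at −8.24 and −7.71.

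The repeats of a line agreed for most members. No member differed 2-fold on the log2(TPM + 1) scale between the repeats of LNCaP, DUCAP or VCAP. In PC3 only TGFB2 did, and in DU145 ID3, LTBP2, LTBP3 and LTBP4 did, each higher in repeat 1. Across the whole table, 9.48% of the tested genes were 2-fold apart in DU145 and 0.902 to 2.12% in the other lines. Without DU145 repeat 1, TGFBI left the test, which needed 1 TPM in 2 samples, although DU145 repeat 2 held 93.6 TPM. SMAD2 then fell to 0.97 in DU145 and PC3 against the other lines. In DU145 against PC3, TGFB2 fell to 1.05 and LTBP2 to 0.38.

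A further 107 genes of the pathway, taken from 7 lists of ligands, receptors, extracellular regulators, activators of latent TGF-beta, intracellular modulators and response genes, were examined in the same fit. Of these 73 were tested and 64 called across the lines (87.7%, against 80.8% of all tested genes). In DU145 and PC3, 34 of the 73 were called higher (46.6%, against 26.7%) and 6 lower (8.22%, against 8.37%) than in the other lines, with a median log2 difference of 0.85, against 0.40. The ligand GDF15, a stress-induced member of the family, was at 481 to 549 TPM in LNCaP and 144 to 337 in PC3, and at 0.60 to 1.58 in DU145. AMH was highest in VCAP (22.4 and 6.55 TPM). Of the 9 tested further ligands, 1 was called higher in DU145 and PC3 (11.1%, against 26.7% of all tested genes) and 1 lower (11.1%, against 8.37%). Of the 4 tested further receptors, 0 were higher and 1 was lower (25.0%). The 46.6% of the joined lists thus does not hold for these 2 lists. Among the other receptors, the BMP type I receptor BMPR1B was at 0.28 to 0.30 TPM in DU145 and 7.27 to 20.4 TPM elsewhere, and BAMBI, a decoy receptor, was highest in LNCaP (15.8 and 19.9 TPM) and did not exceed 2.79 TPM elsewhere. Of 17 further extracellular regulators, 8 of the 9 tested were called higher in DU145 and PC3, where 26.7% of all tested genes were, and for 4 of the 9 all samples of both lines lay above all others (19.8% of tested genes). For the rest of the called ones, some DU145 or PC3 samples lay within the range of the other lines. FSTL1, a follistatin-like protein, was highest in PC3 (282 and 321 TPM) and lower in DU145 (10.1 and 2.89) than in DUCAP and VCAP (25.9 to 94.0), and CRIM1 was highest in DU145 (151 and 132 TPM). THBS1, thrombospondin 1, which can activate latent TGF-beta, was at 0.66 to 0.91 TPM in LNCaP and 18.6 to 37.0 TPM in the other lines. ITGB8, an integrin subunit with the same ability, was above 1 TPM in PC3 only (4.64 and 7.32). Of 22 tested intracellular modulators, 9 were higher (40.9%, against 26.7%) and 2 lower (9.09%, against 8.37%) in DU145 and PC3. The SMAD partners RUNX1 and RUNX3 showed the widest ranges, with RUNX1 at 25.5 to 38.7 against 0.28 to 1.36 TPM (4.28) and RUNX3 at 5.96 to 16.2 against 0 to 0.11 TPM (3.43).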

How the data were processed

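Per the labels and the study's methods, the authors prepared polyA-enriched, strand-specific libraries, assessed reads with FastQC 0.11.9, trimmed them with Trim Galore 0.6.5, aligned them with STAR 2.7.2b to GRCh38 and quantified genes with RSEM 1.3.3. They deposited TPM per sample, which sum to 982880 to 991998 and keep no sequencing depth, so no counting interval was computed and precision rests on 2 repeats per line. Whether RSEM used the strand is not given in the sources used here. Each row was 1 gene symbol, and all 10 columns were used.

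TPM were transformed to log2(TPM + 1). The 17520 genes that reached 1 TPM in 2 samples or more entered a limma fit (3.58.1, R 4.3.3) of all 10 samples with a mean for each line, a variance trend and 5 residual degrees of freedom. P-values were adjusted by Benjamini-Hochberg. Levels were printed per sample for members called across the lines with a range of line means of at least 3 (log2), and for the widest and most abundant member of each role. In each further list the 2 called genes with the widest range were named. The members, lists and tests were chosen with earlier results of these data known. The labels do not tie repeat numbers across lines, so no block was used. Alternatives were another pseudocount, filters, scalings, a fit without the trend, the repeat number as a covariate, the adjusted p alone, and the omission of single samples. Python 3.11.15, pandas 2.3.3 and matplotlib 3.10.9 were used.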

Additional observations from a re-analysis of the deposited data

How the results depend on the processing

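Of 58 called differences of single members, 39 stayed called under every setting, 11 were lost under at least 1, and none changed sign where it had a value. The other 8 are those of FST, INHBA and NOG, which leave the test without either PC3 repeat, and of TGFBI, which does so without either DU145 repeat. These 8 stayed called under the remaining settings. The counts called across the lines and higher in DU145 and PC3 stayed within 1.5 times. Members lower in DU145 and PC3 (3) became 6 under a pseudocount of 0.1, without mitochondrial genes, and with quantile or median-ratio scaling, and 10 by adjusted p alone. Over all tested genes, the number called lower rose as well, from 1467 to 2036 without mitochondrial genes, 2636 with quantile and 2311 with median-ratio scaling. Those whose samples lay below all others (1) became 3 with quantile and 2 with median-ratio scaling, and 1 to 2 with a sample left out. Members higher in DU145 than in PC3 (6) numbered 12 by adjusted p alone and 3 to 6 with a sample left out, the lowest without DU145 repeat 1 or PC3 repeat 2. Members higher in LNCaP than in DUCAP and VCAP (4) numbered 7 with the other pseudocount, 2 after either scaling and 9 by adjusted p alone. Over all tested genes, the number called higher fell as well, from 5205 to 2889 with quantile and 2915 with median-ratio scaling. Members lower in DUCAP than in VCAP (5) numbered 3 to 5 with a sample left out, the lowest without DUCAP repeat 2 or VCAP repeat 2.

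Of the further pathway genes, those lower in DU145 and PC3 (6) became 10 with the other pseudocount, 10 after quantile normalization and 15 by adjusted p alone. Leaving out samples gave 7 to 14 genes higher (12) and 15 to 23 lower (23) in DU145 than in PC3, the lowest without DU145 repeat 1 and PC3 repeat 1. Those higher in LNCaP (13) became 6 after either scaling and 26 by adjusted p alone. Between DUCAP and VCAP, 2 were higher, with 1 in the unfiltered fit, 4 after median-ratio scaling, 4 by adjusted p alone and 1 to 3 with a sample left out, and 3 were lower, with 9, 7 and 10 under the other pseudocount, without mitochondrial genes and by adjusted p alone.

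The scalings moved the median log2 difference of all genes between DU145 and PC3 and the other lines from 0.40 to 0.20 (without mitochondrial genes), 0.02 (median-ratio) and −0.07 (quantile). The cause of these changes was not tested. In the fit that blocked on repeat numbers (replicate block), 34 members were called across the lines, and LTBP2 between DU145 and PC3 was the 1 member call lost. Deviations of same-numbered repeats correlated at −0.19 to 0.25 over the 10 pairs of lines, so the repeat numbers gave no sign of pairing the samples. The labels also carry culture numbers, which differ from the repeat numbers in DU145 and PC3. Pairing by culture number was not tested. Depth behind the values is unknown, so the counting error of levels below 1 TPM is unknown too.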

Other observations

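Lists of response genes, compiled from general knowledge with earlier results of these data known, were set beside the pathway members. Of 22 genes known to respond to TGF-beta, 3 of which are members, all were tested. In DU145 and PC3, 16 were called higher (72.7%, against 26.7% of all tested genes) and 1 lower (4.55%, against 8.37%) than in LNCaP, DUCAP and VCAP. All samples of both lines lay above all others for 10 of the 22 (45.5%, against 19.8%), and the median log2 difference was 2.10, against 0.40 for all tested genes. CCN2, or connective tissue growth factor, had the widest range, at 26.4 to 29.7 TPM in DU145, 96.1 to 169 TPM in PC3 and at most 0.37 TPM in the other lines (5.83 for DU145 and PC3 against the others, adjusted p from limma 2.8e-08). CCN2 entered the test only through DU145 and PC3, so its p-value adds no support to these levels. TGFBI, the next widest, is described above. PMEPA1, singled out after its values had been seen, was the 1 gene called lower (−1.38), at 20.5 to 44.5 TPM in DU145 and PC3 and 30.0 to 172 TPM in the others. SMAD7, also on this list, was lower in DU145 and PC3 by less than 2-fold (−0.85, adjusted p from limma 6.7e-04). VIM was high in the same 2 lines and made up most of their summed mesenchymal markers, and its part was not tested.

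Of 17 genes known to respond to BMPs, 8 of which are members, 4 were called higher (23.5%, against 26.7%) and 3 lower (17.6%, against 8.37%) in DU145 and PC3, and the median log2 difference was −0.17. ID1 and ID3 had the widest ranges. In LNCaP against DUCAP and VCAP, 3 were higher (17.6%, against 29.7%) and 6 lower (35.3%, against 7.88%), with a median of −0.19, against 0.46 for all tested genes. BAMBI (3.28) was among the higher ones and DLX1 (−3.68), a homeobox gene singled out after its values had been seen, among the lower ones.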
